A study of Mus musculus with 12 samples.

Results

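The 10 genes described here encode parts of the MHC class I pathway: the class I heavy chains H2-K1 and H2-D1 and their light chain B2m, the peptide transporter Tap1 and Tap2, the loading factor Tapbp, the immunoproteasome subunits Psmb8, Psmb9 and Psmb10, and the peptidase Erap1. They were chosen by name, with earlier results of these data known, so their counts are not those of a blind choice. All 10 were found among the 12988 genes of the deposited table. All 10 were among the 12279 genes tested, which had a mean of at least 0.5 FPKM (fragments scaled to transcript length and library size) over the 12 libraries. The libraries came from mouse embryonic fibroblasts (MEF), connective tissue cells grown from mouse embryos, in 4 groups of 3: HSF1 KO MEF with LiCl (20 mM for 48 h), HSF1 KO MEF without LiCl, WT MEF with LiCl (20 mM for 48 h) and WT MEF without LiCl. They are called LiCl-treated KO cells, KO cells, LiCl-treated WT cells and WT cells. HSF1 is the main transcription factor of the heat shock response, while LiCl blocks the kinase GSK3β and so stabilizes β-catenin. The comparisons ask whether these genes respond to LiCl and whether the response depends on HSF1. How the knock-out was made, whether each genotype is 1 clone, and the mouse strain of the cells are not stated in these sources, the labels and the study's methods. The study's methods state that the sequencing was done 3 times but not whether separate cultures gave the 3 libraries of each group, so the p-values reflect only how these libraries vary, and that variation may be technical.

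Nearly all nucleated cells load peptides cut from their own proteins onto class I molecules and show them to CD8 T cells. Proteasomes make the peptides, the TAP transporter carries them into the endoplasmic reticulum, Erap1 trims them, and tapasin (Tapbp) holds the empty class I molecule at the transporter until a peptide binds. Fibroblasts make class I molecules at rest, and interferons raise the genes of this pathway through factors that include IRF1 and NLRC5.

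The Hsf1 level was checked first. It was 3.65, 7.64 and 5.92 FPKM in LiCl-treated KO cells and 0.939, 3.89 and 2.07 FPKM in KO cells, against 14.5, 13.3 and 11.2 FPKM in LiCl-treated WT cells and 11.1, 7.96 and 8.17 FPKM in WT cells. Hsf1 was lower in the knock-out cells without LiCl (log2 fold change -1.70 with a standard error of 0.31, adjusted p = 0.00142 by limma) and with LiCl (-1.10, adjusted p = 0.0159), and was not absent from them. It rose with LiCl in KO cells (1.08, adjusted p = 0.0122). The labels and methods call these cells knock-out, whereas the study also writes HSF1+/− MEF, and which of these holds was not settled here. The levels of a library summed to between 344208 and 370025 FPKM, and read depth is unknown because the table holds no counts. All 10 fibroblast markers were in the table, with summed levels of 1591 to 1660 FPKM in LiCl-treated KO cells, 3100 to 3281 FPKM in KO cells, 1407 to 1464 FPKM in LiCl-treated WT cells and 4556 to 4882 FPKM in WT cells. Without LiCl, 6 of them were lower in KO cells than in WT cells (Lum by -5.46 and Dcn by -4.39), 1 was higher (Vim) and 3 were not called. The shares of all genes were 20.4% lower and 17.8% higher. With LiCl, 8 fell in KO cells and 9 in WT cells, beside 21.1% and 27.1% of all genes. Macrophage markers stood apart in 1 group: the 16 of 17 in the table summed to 113 to 129 FPKM in LiCl-treated KO cells, 1525 to 1750 FPKM in KO cells, 41.4 to 45.8 FPKM in LiCl-treated WT cells and 124 to 132 FPKM in WT cells. Of these markers 16 were higher in KO cells than in WT cells without LiCl, and 16 fell with LiCl in KO cells. Ptprc and Aif1 were at 0 in every library outside KO cells without LiCl. They met the filter of 0.5 FPKM only through that group, which favours both calls. Lyz2, the lysozyme of macrophages, held most of the sum in KO cells (1173 ± 106 FPKM, SD, n = 3), and Ptprc (CD45), which marks blood cells, had 3.57 to 3.94 FPKM there and was at 0 in all other libraries. In bulk RNA, fewer cells of a type and less RNA per cell cannot be told apart. None of the 6 T cell and NK cell markers was in the table, 1 of 7 dendritic cell and B cell markers was (at most 0.96 FPKM in a library), 1 of 7 endothelial markers was (at most 2.5 FPKM), and the 3 of 6 epithelial markers summed to 30.4 to 34.0 FPKM in LiCl-treated KO cells, 3.18 to 4.81 FPKM in KO cells, 25.3 to 27.8 FPKM in LiCl-treated WT cells and 7.99 to 9.74 FPKM in WT cells.

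LiCl moved the 10 genes in different directions, and the pattern differed between the genotypes. In WT cells, 4 of the 10 rose with LiCl (B2m, H2-D1, Tap1 and Tapbp) and 3 fell (Psmb9, Psmb10 and Erap1), beside 38.1% of all genes tested that rose and 27.1% that fell. In KO cells, 1 rose (Tap1) and 6 fell (H2-K1, Tapbp, Psmb8, Psmb9, Psmb10 and Erap1), beside 36.5% and 21.1% of all genes. The response of 7 genes was lower in KO cells than in WT cells by the test of the difference itself, and none was higher, beside 15.3% of all genes that were lower and 16.1% that were higher. All calls are from limma at an adjusted p under 0.05. The median log2 fold change of the 10 genes with LiCl was -0.81 in KO cells and 0.09 in WT cells, while the median of all genes was 0.16 and 0.13. Median-of-ratios scaling, which takes the all-gene shift out, brought these all-gene medians to -0.00 and -0.02. Of all genes, 3232 then rose and 3455 fell with LiCl in KO cells, against 4480 and 2592 as deposited, and 3799 rose and 3990 fell in WT cells, against 4680 and 3330. Of the 10 genes, 1 then rose and 8 fell in KO cells, and 3 rose and 4 fell in WT cells.

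**Figure D1:**
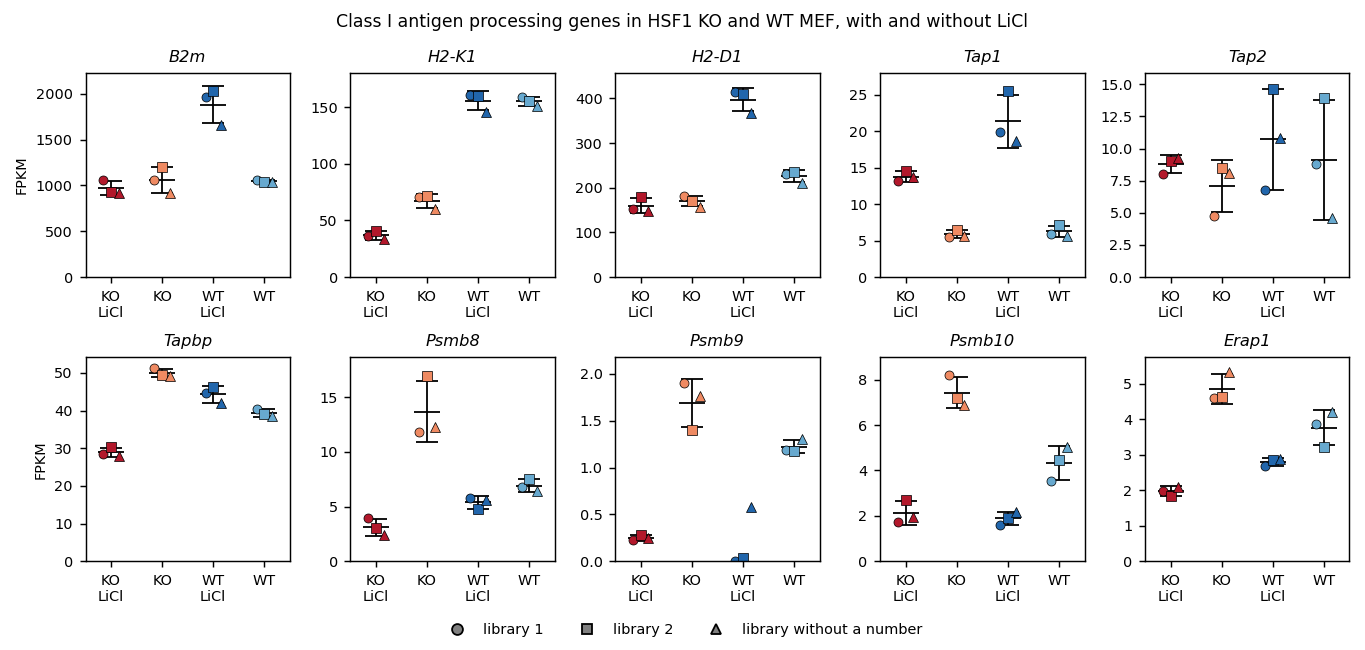
Level of each gene in FPKM (vertical axes, each from 0) in the 12 libraries, by group; symbols mark library 1, library 2 and the library without a number, and bars are the mean ± SD of 3 libraries, left out where a library is listed at 0. B2m and H2-D1 stand high only in LiCl-treated WT cells (B2m 1655 to 2030 FPKM), Tap1 is high in both LiCl groups, and Psmb8 is highest in KO cells without LiCl.

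Of the class I molecules, B2m and H2-D1 rose with LiCl in WT cells and H2-K1 fell with it in KO cells, and the response of all 3 genes was lower in KO cells. B2m, the invariant light chain that every classical class I heavy chain needs to reach the cell surface, had 1059, 930 and 919 FPKM in LiCl-treated KO cells and 1064, 1200 and 920 FPKM in KO cells, while WT cells had 1960, 2030 and 1655 FPKM with LiCl and 1058, 1043 and 1039 FPKM without. The LiCl-treated WT libraries lay above all 9 others, and the 3 other groups overlapped. LiCl raised the mean of B2m 1.80-fold in WT cells (log2 fold change 0.84, standard error 0.11, adjusted p = 4.07e-05). In KO cells the change was -0.13, with a 95% interval of -0.36 to 0.11 (adjusted p = 0.344). The difference between the responses, KO cells minus WT cells, was -0.97 (standard error 0.15, adjusted p = 0.000689).

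H2-D1, one of the classical heavy chains that present peptides, was also highest in LiCl-treated WT cells. Its libraries had 152, 179 and 149 FPKM in LiCl-treated KO cells, 182, 171 and 158 FPKM in KO cells, 415, 409 and 368 FPKM in LiCl-treated WT cells and 231, 236 and 211 FPKM in WT cells. The LiCl-treated WT libraries were above all others, those of WT cells came next, and the 2 KO groups overlapped. LiCl raised it 1.76-fold in WT cells (log2 fold change 0.81, standard error 0.08, adjusted p = 8.58e-06), and in KO cells its change was -0.09 (95% interval -0.28 to 0.10, adjusted p = 0.379). The difference between the responses was -0.90 (standard error 0.12, adjusted p = 0.000218). After median-of-ratios scaling the falls in KO cells passed the threshold for both genes, with -0.33 for B2m (adjusted p = 0.0322) and -0.30 for H2-D1 (adjusted p = 0.021).

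H2-K1, the other classical heavy chain, did not rise with LiCl in either genotype. It had 36.6, 41.1 and 33.2 FPKM in LiCl-treated KO cells and 70.3, 71.1 and 60.3 FPKM in KO cells, against 161, 160 and 146 FPKM in LiCl-treated WT cells and 159, 155 and 151 FPKM in WT cells. The 2 WT groups overlapped (log2 fold change 0.01, 95% interval -0.18 to 0.20, adjusted p = 0.962), whereas H2-K1 fell with LiCl in KO cells (-0.85, standard error 0.09, adjusted p = 9.95e-06). The difference between the responses was -0.85 (standard error 0.12, adjusted p = 0.000345). H2-K1 also showed the largest genotype difference of the 10 genes in both conditions: with LiCl it was 4.21-fold lower in KO cells than in WT cells (log2 fold change -2.05, standard error 0.09, adjusted p = 2.62e-08) and 2.30-fold lower without LiCl (-1.19, standard error 0.09, adjusted p = 1.02e-06).

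The balance between the 2 heavy chains moved with both factors. The level of H2-K1 was 0.223 to 0.240 of that of H2-D1 in LiCl-treated KO cells, 0.381 to 0.415 in KO cells, 0.388 to 0.396 in LiCl-treated WT cells and 0.659 to 0.712 in WT cells. The ratio was lower with LiCl in both genotypes without overlap, beside a fall of H2-K1 in KO cells and a rise of H2-D1 in WT cells. H2-K1, H2-D1 and the H2-Q genes are near-identical in parts and vary between mouse strains, so reads can be split between them or lost where the cells differ from the C57BL/6J reference. The part of this in the values was not tested.

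Although others of the 10 genes changed as much, the promoters of these 3 genes and of Tap1 and Psmb8 are shown as examples. They are RefSeq windows of 300 bases on GRCm38.p6, from 250 bases before to 50 after the start of the gene, printed 5′ to 3′ on the strand of the gene, and 9 of the 10 genes matched a window. Capitals mark matches on either strand to GAAANNGAA, TTCNNNGAA, GAANNTTC and GGGNNTTNC, where N is any base. GAAANNGAA is the core of the interferon-stimulated response element, and TTCNNNGAA is the GAS element of interferon-gamma responses. GAANNTTC is only a short part of the heat shock element that HSF1 binds, and GGGNNTTNC is an NF-κB site. No match overlaps another in the 5 windows printed.
B2m, chr2:122147437-122147736, + strand: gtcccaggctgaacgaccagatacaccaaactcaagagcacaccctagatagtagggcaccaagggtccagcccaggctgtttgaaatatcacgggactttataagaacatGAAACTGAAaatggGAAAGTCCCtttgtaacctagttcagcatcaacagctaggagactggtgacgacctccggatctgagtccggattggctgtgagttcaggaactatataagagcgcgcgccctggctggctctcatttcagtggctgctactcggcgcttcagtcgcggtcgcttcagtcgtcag
H2-D1, chr17:35262844-35263143, + strand: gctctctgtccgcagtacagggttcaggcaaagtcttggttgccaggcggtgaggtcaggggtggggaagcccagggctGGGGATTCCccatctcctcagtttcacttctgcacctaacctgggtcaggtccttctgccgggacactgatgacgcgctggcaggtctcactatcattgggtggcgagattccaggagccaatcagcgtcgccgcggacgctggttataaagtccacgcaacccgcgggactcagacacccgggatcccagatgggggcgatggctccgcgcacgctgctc
H2-K1, chr17:34000284-34000583, - strand: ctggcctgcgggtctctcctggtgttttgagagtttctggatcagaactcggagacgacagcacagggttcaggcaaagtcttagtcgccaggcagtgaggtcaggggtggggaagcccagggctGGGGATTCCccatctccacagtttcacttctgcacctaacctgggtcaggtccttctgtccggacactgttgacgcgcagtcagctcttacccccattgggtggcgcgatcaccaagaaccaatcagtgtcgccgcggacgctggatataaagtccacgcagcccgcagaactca
Tap1, chr17:34187306-34187605, + strand: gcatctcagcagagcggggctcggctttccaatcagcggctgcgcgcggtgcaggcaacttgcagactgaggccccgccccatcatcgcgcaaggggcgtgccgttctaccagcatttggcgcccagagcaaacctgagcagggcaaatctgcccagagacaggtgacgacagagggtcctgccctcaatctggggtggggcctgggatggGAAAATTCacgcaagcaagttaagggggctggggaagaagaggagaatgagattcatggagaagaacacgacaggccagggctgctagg
Psmb8, chr17:34197945-34198244, + strand: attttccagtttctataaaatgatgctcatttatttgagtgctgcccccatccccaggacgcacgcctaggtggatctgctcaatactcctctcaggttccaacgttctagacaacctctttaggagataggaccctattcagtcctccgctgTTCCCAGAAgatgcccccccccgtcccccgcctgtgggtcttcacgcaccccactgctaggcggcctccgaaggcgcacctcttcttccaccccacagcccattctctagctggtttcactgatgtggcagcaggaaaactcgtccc

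The matches were the same NF-κB letters, GGGGATTCC, in the windows of H2-D1 and H2-K1, and an interferon element and an NF-κB site beside each other in that of B2m. The window of Tap1 held GAANNTTC, a part of a heat shock element, and that of Psmb8 a GAS site. Among the 32851 windows of this length in the RefSeq table, 8.56% held GAAANNGAA, 8.30% TTCNNNGAA, 7.86% GAANNTTC and 15.2% GGGNNTTNC. Of the 9 genes with a window, GAAANNGAA was found in 2 (B2m and Erap1), TTCNNNGAA in 1 (Psmb8), GAANNTTC in 2 (Tap1 and Psmb9) and GGGNNTTNC in 3 (B2m, H2-D1 and H2-K1). The windows of Psmb10 and Tapbp, which are not printed, held no match. The windows of Tap1 and Psmb9 share 275 bases on opposite strands, so both hold the same GAANNTTC match. It begins at -39 from the start of Tap1 and at -194 from the start of Psmb9. A match is a description of letters and not a binding site. Only these patterns were searched, so a window without a match may hold another form of an element. The windows of H2-D1 and H2-K1 both hold the unmarked letters cagtttcacttct, which GAAANNGAA does not match on either strand.

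The transporter subunit genes differed from each other. Tap1, which with Tap2 forms the ATP-driven peptide pump, had 13.1, 14.5 and 13.7 FPKM in LiCl-treated KO cells, 5.54, 6.47 and 5.59 FPKM in KO cells, 19.9, 25.5 and 18.7 FPKM in LiCl-treated WT cells and 5.91, 7.17 and 5.70 FPKM in WT cells. All libraries with LiCl lay above all without it, and the KO and WT libraries without LiCl overlapped. LiCl raised it 2.35-fold in KO cells (log2 fold change 1.11, standard error 0.12, adjusted p = 1.77e-05) and 3.41-fold in WT cells (1.61, standard error 0.12, adjusted p = 5.56e-07), and it was the only one of the 10 genes to rise in both. The difference between its responses was -0.51 (standard error 0.17, adjusted p = 0.0436), a call that 14 of 23 other settings lost, 10 of them by leaving out 1 library (adjusted p from 0.0269 to 0.0973 over the 12 libraries left out in turn). Tap1 is in the list of HSF1-dependent genes that the study chose on these libraries, the only one of the 10 genes that is. The study describes the genes of that list as ones that LiCl no longer raised without HSF1, whereas Tap1 rose in KO cells here. The study's figures give a fold-change cut, which was not used here. Tap2, the partner subunit, had 8.03, 9.05 and 9.30 FPKM in LiCl-treated KO cells and 4.78, 8.46 and 8.11 FPKM in KO cells, against 6.76, 14.6 and 10.8 FPKM in LiCl-treated WT cells and 8.78, 13.9 and 4.61 FPKM in WT cells. All 4 groups of Tap2 overlapped. Its log2 fold change with LiCl was 0.30 in KO cells (95% interval -0.47 to 1.07) and 0.27 in WT cells (-0.50 to 1.04), and both intervals hold changes of either sign.

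Tapbp, the gene of tapasin, had narrow groups that separated by both factors. It had 28.4, 30.3 and 27.9 FPKM in LiCl-treated KO cells and 51.3, 49.4 and 49.3 FPKM in KO cells, against 44.6, 46.3 and 42.0 FPKM in LiCl-treated WT cells and 40.4, 39.0 and 38.5 FPKM in WT cells. It fell with LiCl in KO cells (log2 fold change -0.77, standard error 0.05, adjusted p = 5.5e-07). In WT cells it was 0.17 higher (standard error 0.05, adjusted p = 0.0179), close to the shift of all genes, and -0.0071 after median-of-ratios scaling. This rise was not called without the unnumbered WT library (adjusted p = 0.0507), or without library 2 of the LiCl-treated WT cells (adjusted p = 0.0768). The difference between the responses was -0.94 (standard error 0.08, adjusted p = 6.71e-06).

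**Figure D2:**
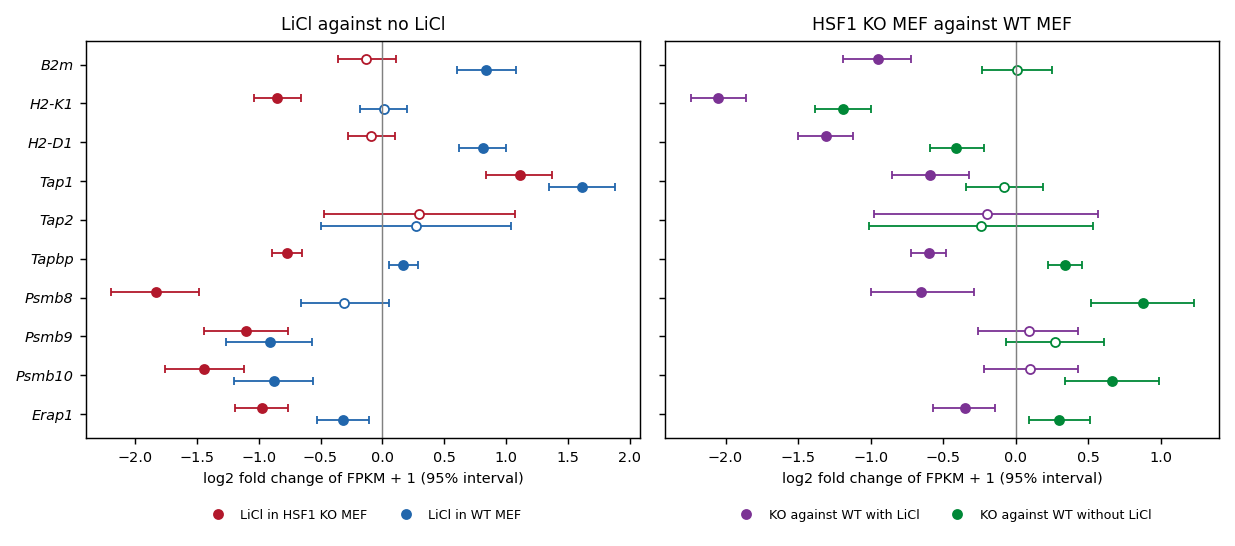
Log2 fold change of FPKM + 1 of each gene with its 95% interval (horizontal axes) for LiCl in each genotype (left) and for KO cells against WT cells in each condition (right); filled points had an adjusted p under 0.05 from limma. In WT cells the LiCl change of B2m (0.84) and H2-D1 (0.81) lies above 0 while that in KO cells (-0.13 and -0.09) does not, and H2-K1 lies lowest in both genotype comparisons (-2.05 and -1.19).

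The 3 immunoproteasome genes encode inducible catalytic subunits that replace the constitutive Psmb5, Psmb6 and Psmb7, and none of them rose with LiCl in either genotype. Psmb8 (the partner of Psmb5) had 3.93, 3.02 and 2.40 FPKM in LiCl-treated KO cells and 11.8, 16.9 and 12.3 FPKM in KO cells, while WT cells had 5.81, 4.73 and 5.62 FPKM with LiCl and 6.76, 7.55 and 6.39 FPKM without. The KO libraries without LiCl were the highest and those with LiCl the lowest, with no overlap between any groups. It fell 4.38-fold with LiCl in KO cells (log2 fold change -1.83, standard error 0.16, adjusted p = 3.23e-06), and in WT cells its log2 fold change was -0.31 (95% interval -0.66 to 0.05, adjusted p = 0.117), which passed the threshold after median-of-ratios scaling (-0.46, adjusted p = 0.0317). The difference between the responses, -1.52 (standard error 0.23, adjusted p = 0.000473), was the largest of the 10 genes.

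Psmb10 (the partner of Psmb7) had 1.72, 2.72 and 1.94 FPKM in LiCl-treated KO cells and 8.20, 7.19 and 6.90 FPKM in KO cells, and 1.60, 1.92 and 2.15 FPKM in LiCl-treated WT cells against 3.53, 4.47 and 5.02 FPKM in WT cells. LiCl lowered it in KO cells (-1.44, standard error 0.14, adjusted p = 9.53e-06) and in WT cells (-0.88, standard error 0.14, adjusted p = 0.000288), and the difference between the responses did not pass the threshold (-0.56, standard error 0.20, adjusted p = 0.0608). Psmb9 (the partner of Psmb6) was the lowest of the 10 genes, with 0.223, 0.283 and 0.245 FPKM in LiCl-treated KO cells, 1.90, 1.40 and 1.76 FPKM in KO cells, a library listed at 0 beside 0.033 and 0.584 FPKM in LiCl-treated WT cells, and 1.19, 1.18 and 1.30 FPKM in WT cells. It fell with LiCl in KO cells (-1.10, standard error 0.16, adjusted p = 0.000122) and in WT cells (-0.91, standard error 0.16, adjusted p = 0.000357). Its mean was 0.250 FPKM in LiCl-treated KO cells and 0.206 FPKM in LiCl-treated WT cells. Psmb9 thus met the cuts of 0.5 FPKM only through the groups without LiCl, which favours a fall. On the log2(FPKM + 1) scale the falls of genes with such low levels are understated. The macrophage markers fell with them in KO cells (16 of 16, against 11 of 16 in WT cells), and their part in these falls was not tested. Of these markers, Ptprc and Aif1 met the filter only through KO cells without LiCl.

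The constitutive partners moved the other way, and the level of each inducible gene against its partner was lower with LiCl in both genotypes. Psmb5, Psmb6 and Psmb7 rose with LiCl in KO cells by 0.41, 0.70 and 0.60 and in WT cells by 0.49, 1.01 and 0.81, all past the threshold, although only 2 of the 3 rose in KO cells after median-of-ratios scaling. The level of Psmb8 was 1.59% to 2.42% of that of Psmb5 in LiCl-treated KO cells, 8.57% to 13.2% in KO cells, 3% to 3.78% in LiCl-treated WT cells and 5.89% to 6.92% in WT cells. For Psmb10 over Psmb7 the ranges were 0.957% to 1.39%, 5.66% to 6.45%, 1.01% to 1.38% and 3.83% to 5.61% in the same 4 groups. Psmb9 was at most 1.31% of Psmb6 in any library.

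**Figure D3:**
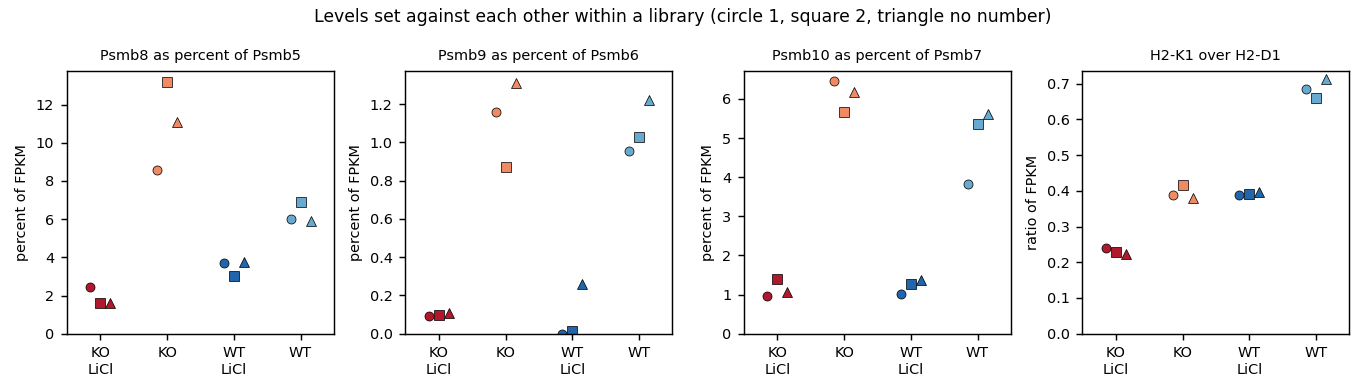
Level of each immunoproteasome gene as a percent of that of its constitutive partner, and of H2-K1 as a ratio to H2-D1 (vertical axes, each from 0), in each of the 12 libraries. The libraries with LiCl lie below those without LiCl of the same genotype in every panel, and H2-K1 over H2-D1 is 0.659 to 0.712 in WT cells and at most 0.415 in the other groups.

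Erap1, which trims the ends of peptides to the length that class I molecules hold, had 1.99, 1.84 and 2.10 FPKM in LiCl-treated KO cells and 4.59, 4.64 and 5.33 FPKM in KO cells, against 2.68, 2.85 and 2.88 FPKM in LiCl-treated WT cells and 3.87, 3.22 and 4.21 FPKM in WT cells. The 4 groups did not overlap, and the KO cells held both the highest group and, with LiCl, the lowest. It fell with LiCl in KO cells (-0.97, standard error 0.10, adjusted p = 8.34e-06) and less in WT cells (-0.32, standard error 0.10, adjusted p = 0.0128), with a difference of -0.65 (standard error 0.14, adjusted p = 0.00403). The fall in WT cells was not called without the unnumbered WT library (adjusted p = 0.0517).

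Between the genotypes without LiCl, the pathway split. Psmb8, Psmb10, Tapbp and Erap1 were higher in KO cells than in WT cells and H2-K1 and H2-D1 were lower, so 4 of 10 were higher and 2 lower beside 17.8% and 20.4% of all genes. The log2 fold changes were 0.88 for Psmb8 (standard error 0.16, adjusted p = 0.00133), 0.66 for Psmb10 (standard error 0.14, adjusted p = 0.00405), 0.34 for Tapbp (standard error 0.05, adjusted p = 0.000504), 0.30 for Erap1 (standard error 0.10, adjusted p = 0.0312) and -0.41 for H2-D1 (standard error 0.08, adjusted p = 0.00313). The call of Erap1 was lost in 7 of 23 other settings, among them leaving out KO library 2 (adjusted p = 0.0514) or the unnumbered one (adjusted p = 0.103) and WT library 1 (adjusted p = 0.0586) or library 2 (adjusted p = 0.122). The 4 higher genes moved with the macrophage markers, which summed to 1525 to 1750 FPKM in KO cells and 124 to 132 FPKM in WT cells. The part of these markers in the result was not tested.

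With LiCl the genotype difference ran one way. In KO cells 7 of the 10 genes were lower than in WT cells (H2-K1, H2-D1, B2m, Psmb8, Tapbp, Tap1 and Erap1) and none was higher, beside 23% and 19.6% of all genes. The log2 fold change was -1.31 for H2-D1 (standard error 0.08, adjusted p = 5.73e-07) and -0.95 for B2m (standard error 0.11, adjusted p = 3.64e-05). Those of Psmb8, Tapbp, Tap1 and Erap1 were -0.65, -0.60, -0.59 and -0.35. These comparisons share libraries with those above, so they are side by side and not independent of them. The macrophage markers summed to 113 to 129 FPKM in LiCl-treated KO cells and 41.4 to 45.8 FPKM in LiCl-treated WT cells. Lyz2 held most of the sum in LiCl-treated KO cells (85.9 ± 5.98 FPKM, against 9.5 ± 2.26 FPKM in LiCl-treated WT cells, SD, n = 3 each). Of the 16 markers 10 were higher and 2 lower in KO cells with LiCl, the lower ones being Cd68 (-1.52) and Cd14 (-1.20). Their part in the result was not tested.

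The order of the levels within a group, which FPKM sets per length, was the same at the top in all 4 groups: B2m, then H2-D1, then H2-K1, with Tapbp after them. The position of the lower genes changed. Psmb8 was the fifth in KO cells (mean 13.7 ± 2.84 FPKM, SD, n = 3) and lay below both transporter genes in LiCl-treated KO cells (3.11 ± 0.768 FPKM), while Tap1 was the fifth in both LiCl groups. Tap2, Psmb8 and Tap1 had overlapping libraries in WT cells, so their order there is not set. Erap1, Psmb10 and Psmb9 held the last 3 positions in every group but KO cells, where Tap1 took the place of Psmb10, and Psmb9 was the last in all 4.

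Of the 10 genes 7 lie on chromosome 17 of GRCm38, in and beside the MHC. H2-K1 spans chr17:33996017-34000347 on the reverse strand and H2-D1 chr17:35262730-35267499 on the forward strand, with Tapbp at chr17:33915899-33929292. Psmb9 (chr17:34181987-34187764, reverse strand), Tap1 (chr17:34187553-34197225), Psmb8 (chr17:34197721-34201454) and Tap2 (chr17:34203527-34216321) stand in a row of 34335 bp. B2m is at chr2:122147686-122153083, Psmb10 at chr8:105935735-105938444 and Erap1 at chr13:74639568-74693201. The neighbours did not move together: with LiCl in KO cells Psmb9 and Psmb8 fell while Tap1, between them, rose. Tap1-206, a transcript of Tap1, shares 212 exon bases with Psmb9-204 on the opposite strand, and Tap1-201 starts 38 bp from the start of Psmb9-204. The library kit marks strand, but whether the counting used it is not stated in the labels or the study's methods, so reads of the shared bases cannot be assigned with certainty.

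The table held 20 transcripts of the 10 genes, of which 16 were tested one by one. In WT cells 7 rose and 2 fell with LiCl, beside 35.9% of all transcripts that changed in either direction, and in KO cells 1 rose and 6 fell, beside 29.1%. H2-D1-202, of 8 exons, carried 87.2% to 94.4% of the H2-D1 level in each group, and the short transcript H2-D1-203 rose in WT cells (log2 fold change 2.12, adjusted p = 0.0001). H2-K1-201 carried 83.0% to 88.2% of H2-K1. For Tap1 the split between transcripts was unstable: Tap1-201 was listed at 0 in KO library 1 and the unnumbered one and had 3.05 FPKM in library 2, and in WT cells it was likewise at 0 in 2 libraries and at 4.49 FPKM in the other. Taken one by one in KO cells, Tap1-201 rose with LiCl (log2 fold change 2.50, adjusted p = 0.0275), while that of Tap1-206, the most abundant over all libraries, was 0.38 (adjusted p = 0.433).

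Other genes of the pathway were read from lists chosen with earlier results of these data known. Their LiCl counts stand beside 36.5% of all genes that rose and 21.1% that fell in KO cells, and 38.1% and 27.1% in WT cells. Among 7 genes of the loading complex and quality control in the endoplasmic reticulum, 2 rose and 3 fell with LiCl in KO cells and 4 rose and 2 fell in WT cells (2 rose and 3 fell after median-of-ratios scaling). The chaperone gene Calr fell in both, by -0.77 in KO cells and -0.52 in WT cells, as did Tapbpl, a relative of tapasin that edits peptides, by -0.75 and -1.21. Canx, the calnexin that holds new heavy chains, had 230 ± 22.7 FPKM in LiCl-treated KO cells and 208 ± 10.2 FPKM in KO cells, against 276 ± 11.7 FPKM in LiCl-treated WT cells and 160 ± 15.8 FPKM in WT cells (SD, n = 3 each). Its responses differed by -0.65 (standard error 0.12, adjusted p = 0.00226). Of 8 proteasome activators and assembly factors 2 rose and 1 fell in KO cells and 4 rose and 1 fell in WT cells (1 rose and 2 fell in KO cells after median-of-ratios scaling). Psme4, an activator of the proteasome, was the only one whose responses differed (-0.63, standard error 0.10, adjusted p = 0.000875). Of 7 peptidases that trim or destroy peptides 5 rose in each genotype, among them Lap3 and Nrd1 (3 in each after median-of-ratios scaling), and 1 fell in WT cells (Npepps).

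The nonclassical class I genes did not behave as one group. Of 17 genes, 14 were in the table and 13 were tested: 1 rose and 6 fell with LiCl in KO cells, and 2 rose and 9 fell in WT cells. Without LiCl, 11 were lower and none higher in KO cells than in WT cells, beside 20.4% and 17.8% of all genes. The limits given above on reads split between near-identical H2 genes and on mouse strain apply to the H2-Q genes among them. The calls of these genes may therefore not be separate results, and the part of these limits was not tested. H2-Q2, H2-Q10 and H2-T10 reached the filter of 0.5 FPKM only through WT cells without LiCl, which favours a lower call in KO cells. H2-T24, left out by the filter, had 0.51 to 0.909 FPKM in KO cells and 0 to 0.0379 FPKM in WT cells. H2-Q4 and H2-Q6, like H2-D1, were highest in LiCl-treated WT cells. H2-Q4 averaged 10 ± 1.61 FPKM in LiCl-treated KO cells, 13.6 ± 0.809 FPKM in KO cells, 58.1 ± 0.776 FPKM in LiCl-treated WT cells and 29.6 ± 0.939 FPKM in WT cells (SD, n = 3 each), with a difference between the responses of -1.36 (standard error 0.13, adjusted p = 1.95e-05). H2-Q4 and H2-Q6 are in the study's list of HSF1-dependent genes, which was chosen on these libraries, so their direction is not independent evidence. H2-T23 (Qa-1), a ligand of receptors on NK cells, fell by -2.56 in both genotypes. H2-Q7 had 0.457 to 0.612 FPKM in KO cells against 13.5 to 14.8 FPKM in WT cells, H2-Q10 had 0 to 0.187 FPKM in KO cells against 7.8 to 8.95 FPKM in WT cells, and H2-Q2 was at 0 in all libraries but those of WT cells without LiCl.

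Of the transcription factors of class I genes, Nlrc5 rose with LiCl in WT cells. Its product is the class I transactivator, a partner of RFX and other factors at the promoters of H2 heavy chain, B2m, Tap1 and Psmb9 genes. Nlrc5 averaged 2.92 ± 0.090 FPKM in LiCl-treated KO cells, 2.31 ± 0.168 FPKM in KO cells, 12.1 ± 1.56 FPKM in LiCl-treated WT cells and 1.55 ± 0.695 FPKM in WT cells (SD, n = 3 each). Its log2 fold change was 2.38 in WT cells (standard error 0.17, adjusted p = 3.65e-07) and 0.24 in KO cells (adjusted p = 0.245), and its responses differed by -2.14 (standard error 0.24, adjusted p = 6.22e-05). It too is in the list of genes the study chose on these libraries. Over the 18 factors 3 rose and 6 fell with LiCl in KO cells, and 4 rose and 6 fell in WT cells, beside 36.5% and 21.1% of all genes in KO cells and 38.1% and 27.1% in WT cells. With median-of-ratios scaling the KO counts were 2 and 8.

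Interferon-induced genes outside antigen processing moved largely as a group. All 26 fell with LiCl in KO cells (median log2 fold change -3.10), beside 21.1% of all genes. In WT cells 23 fell and 2 rose (median -1.21, Ifi35 and Trim21 rose), beside 27.1% and 38.1%. All 26 were higher in KO cells than in WT cells without LiCl (median 1.62), beside 17.8% of all genes. Their responses were lower in KO cells for 25 of 26, beside 15.3%. Rsad2, Iigp1, Ifi44 and Oasl2 had means under 0.5 FPKM in both LiCl groups. They met the filter only through the groups without LiCl, which favours a fall. Rsad2, with 9.27 FPKM in KO cells and 0.509 FPKM in WT cells, met it through KO cells, which favours a higher call there. Ifit1, an RNA-binding antiviral protein, had 0.786 ± 0.105 FPKM in LiCl-treated KO cells and 107 ± 5.15 FPKM in KO cells, against 0.919 ± 0.066 FPKM in LiCl-treated WT cells and 15.5 ± 1.23 FPKM in WT cells (SD, n = 3 each). Tapbp, Psmb8, Psmb9, Psmb10 and Erap1 had their highest mean in KO cells without LiCl. B2m, H2-D1 and Tap1 were highest in LiCl-treated WT cells, where 23 of the 26 had fallen. H2-K1 and Tap2 also had their highest mean in LiCl-treated WT cells, with libraries that overlapped those of WT cells. Of 11 receptor and signalling genes 4 rose and 4 fell with LiCl in KO cells (2 and 5 after median-of-ratios scaling), beside 36.5% and 21.1% of all genes, and 2 rose and 7 fell in WT cells, beside 38.1% and 27.1%. Usp18, a brake on interferon signalling, had 5.57 ± 0.688 FPKM in LiCl-treated KO cells and 72.4 ± 5.47 FPKM in KO cells, against 7.58 ± 1.01 FPKM in LiCl-treated WT cells and 8.04 ± 0.335 FPKM in WT cells. Of 8 MHC class II genes 5 were in the table, of which 3 rose and none fell with LiCl in KO cells and 3 rose and 1 fell in WT cells (2 rose in KO cells after median-of-ratios scaling). H2-Ab1, a class II chain, rose in KO cells (0.40, adjusted p = 0.00374) and fell in WT cells (-1.85, adjusted p = 2.37e-08).

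**Figure D4:**
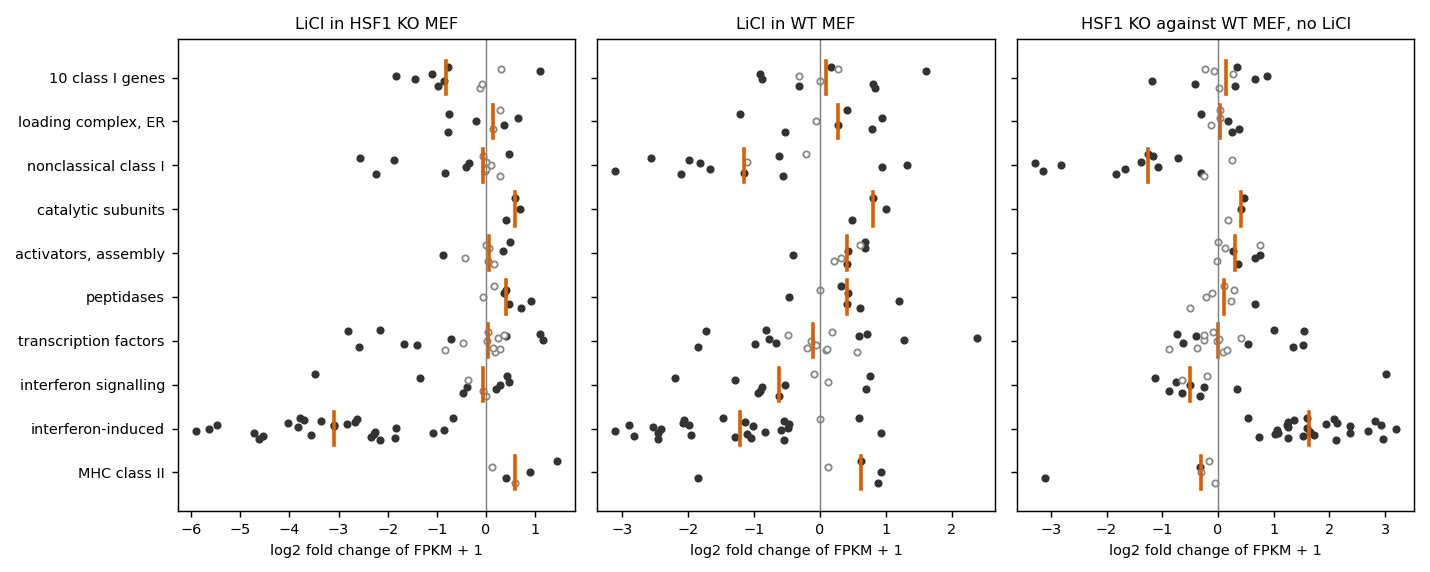
Log2 fold change of FPKM + 1 of each gene of the lists and of the 10 class I genes (horizontal axes, which differ between panels) for LiCl in KO cells, LiCl in WT cells, and KO cells against WT cells without LiCl; filled points had an adjusted p under 0.05 from limma and the orange bar is the median. The interferon-induced genes have medians of -3.10, -1.21 and 1.62 in the 3 panels, beside -0.81, 0.09 and 0.14 for the 10 class I genes.

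The genes that resembled the members most over the 12 libraries, which share 4 groups, are given as a description. With log2(FPKM + 1) the nearest gene to H2-K1 was Vasn (Pearson r = 0.992), to H2-D1 Cebpa (0.991), to Tap1 Alkbh2 (0.992), to Psmb8 Xaf1 (0.959), to Psmb10 Ephx2 (0.977) and to Tapbp Coro1b (0.980). The interferon-induced Isg15 was the third nearest to Psmb10 (0.975). Among the 10 genes, Psmb9 and Psmb10 were the closest pair (0.941), followed by B2m and H2-D1 (0.917) and Psmb8 and Erap1 (0.903), while the neighbours Tap1 and Psmb9 had the lowest value (-0.932).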

How the data were processed

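RNA was measured in 12 libraries of WT MEF and HSF1 KO MEF with and without LiCl, grouped by their labels. The authors deposited a table of transcript levels, taken as FPKM from its values; HISAT2 2.0.5, StringTie, cutadapt and the build GRCm38 are listed in the submitters' processing notes. The study's methods name poly(A) selection (the labels add rRNA removal as another option), and the depth is unknown. Of 27185 transcripts, all with a group mean of at least 0.5 FPKM, 70 had no GENCODE vM21 symbol (at most 0.136% of a library); the others were summed per gene. A gene entered the test on log2(FPKM + 1) if its mean was 0.5 FPKM or more; limma 3.58.1 (R 4.3.3) with a variance trend fitted the 4 groups together, p-values were adjusted by Benjamini-Hochberg over every gene tested, and the threshold was 0.05. The script was tested on simulated data. Summaries used pandas 2.3.3 and matplotlib 3.10.9. The study gives Student's t-test as its default and used adjusted p-values for these data without naming the tool. The text names the 10 genes, Hsf1, up to 4 genes per list with the smallest adjusted p in each comparison, and the nearest genes by correlation; others were chosen after their values were seen. The members and lists were chosen with earlier results of these data known. Alternatives changed the pseudocount, filter, scaling, transcripts, fit and libraries. Protein sequences were not used here.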

Additional observations from a re-analysis of the deposited data

Results flagged for a closer look

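The LiCl response differed between KO cells and WT cells for 7 of the 10 genes by limma's test of the difference itself, and it was lower in KO cells for each. On the log2 scale the differences, KO cells minus WT cells, were -1.52 for Psmb8, -0.97 for B2m, -0.94 for Tapbp, -0.90 for H2-D1, -0.85 for H2-K1, -0.65 for Erap1 and -0.51 for Tap1. The responses of the macrophage markers were also lower in KO cells, for 16 of 16, beside 15.3% of all genes. Ptprc and Aif1 among them met the filter only through KO cells without LiCl, which favours such a call. In WT cells 11 of the 16 markers fell with LiCl and 2 rose. Of the 10 genes, Psmb9, Psmb10 and Erap1 fell there, B2m, H2-D1, Tap1 and Tapbp rose, and H2-K1, Tap2 and Psmb8 were not called. In KO cells all 16 markers fell. Of the 10 genes, H2-K1, Tapbp, Psmb8, Psmb9, Psmb10 and Erap1 fell there, Tap1 rose, and B2m, H2-D1 and Tap2 were not called. The part of the markers in these differences was not tested. Groups of 3 libraries are too small to single out a library by its distance from the others.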

How the results depend on the processing

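Each result was recomputed under 23 alternatives. The number of the 10 genes called was 7 (5 to 8) for LiCl in WT cells, 7 (6 to 9) for LiCl in KO cells, 6 (5 to 7) between the genotypes without LiCl, 7 (6 to 8) with LiCl and 7 (6 to 8) for the difference between the responses. Of 50 gene values 34 were called. Over 780 alternative values of these, 29 lost the call and 1 turned, in 7 results. Beside those given above, the call of Psmb8 between the genotypes with LiCl was lost with the numbered libraries only, an alternative chosen after seeing the data (-0.49, adjusted p = 0.103), as was that of Tap1 with its most abundant transcript (-0.68, adjusted p = 0.123). The cause was not tested.

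Of the values that turned, only that of Tapbp had been called. For LiCl in WT cells they were H2-K1 with median-of-ratios scaling (-0.17), quantile normalization (-0.01), its most abundant transcript (-0.02) and single libraries left out (-0.02 to 0.05), Tap2 with the numbered libraries only (-0.13) and single libraries left out (-0.10 to 0.60), and Tapbp with median-of-ratios scaling (-0.0071). With quantile normalization B2m was 0.04 for LiCl in KO cells and -0.14 between the genotypes without LiCl. Leaving out single libraries gave, between the genotypes without LiCl, -0.08 to 0.11 for B2m, -0.14 to 0.01 for Tap1 and -0.61 to 0.10 for Tap2, and with LiCl -0.47 to 0.03 for Tap2, -0.03 to 0.30 for Psmb9 and -0.03 to 0.20 for Psmb10. The difference between the responses was -0.30 to 0.40 for Tap2 and -0.30 to 0.03 for Psmb9 with single libraries left out, and 0.32 for Psmb9 with a pseudocount of 0.1 and 0.03 with the numbered libraries only. That of Psmb10 was called with median-of-ratios scaling (-0.59) and quantile normalization (-0.66). Psmb9 had no value with a filter of 1 FPKM.

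With a replicate block the counts of the 10 genes called were 7, 7, 6, 7 and 7 and those of all genes 8316, 7500, 5200, 5752 and 4375 for the comparisons in the order above, and no call of the 10 changed. Of the lists' genes 79, 71, 70, 44 and 57 were called. Deviations from the group means correlated between -0.01 and 0.138 in 12 pairs of libraries with the same number, so the numbers were not taken to pair the libraries. In the 6 pairs of unnumbered libraries the correlations were 0.125 to 0.195, against -0.169 to 0.14 in 36 pairs of unlike labels, so the unnumbered libraries deviated together. With the numbered libraries only, the counts of the 10 genes called were 6, 7, 5, 6 and 6 in the same order.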
